A study of Mus musculus with 4 samples.

Results

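The genes of the MHC class II pathway were read across 4 arrays of cultured mouse aortic cells. The set was chosen by name and holds 8 genes: the invariant chain gene Cd74, the class II chains H2-Aa, H2-Ab1 and H2-Eb1, the peptide-loading genes H2-DMa and H2-DMb1, the class II transactivator gene Ciita and B2m. Of these, 7 had a row of their own among the 22180 genes with a single symbol in the platform's annotation, and each of the 7 had 1 such row. The annotation pairs the row of Cd74 with a microRNA gene, so Cd74 is not described here.

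The cells were primary vascular smooth muscle cells (VSMCs), grown for 5 days in serum from collagenase-digested thoracic aortas after the adventitia had been removed. The knockout group (2 arrays) came from SM22α-Cre(+) Mmp14 fl/fl Apoe-/- mice and the control group (2 arrays) from SM22α-Cre(-) Mmp14 fl/fl Apoe-/- mice. All mice therefore lacked Apoe, a lipoprotein carrier whose loss raises plasma cholesterol, and all carried Mmp14, which encodes the membrane-anchored metalloproteinase MT1-MMP, in floxed form. Both groups had eaten a Western diet for 3 months. Cre was driven from the promoter of SM22α (Tagln), which is active in smooth muscle, so cells of other types in a culture are not its intended target. Knockout cells were set against control cells to find transcripts whose level changes when VSMCs lose MT1-MMP.

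MHC class II molecules are pairs of an alpha and a beta chain that present peptides from endocytosed proteins to CD4+ T cells. The invariant chain holds their groove closed on the way to endosomes, where cathepsins cut it away and H2-DM exchanges its last fragment for a peptide. Transcription of these genes is switched by CIITA, a co-activator that binds no DNA itself and is recruited by proteins on the X and Y boxes of class II promoters. Dendritic cells, B cells and macrophages make class II constitutively or after activation, and interferon gamma can induce it in many other cells, smooth muscle included. B2m encodes the light chain of class I molecules, which nearly all nucleated cells carry, and it stands outside the class II molecule itself.

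Windows of the RefSeq promoter table (build GRCm38.p6) were read for 5 of the 8 genes, running from 250 bases before to 50 bases after the annotated start. The table held none for H2-Ab1 and Ciita, and Cd74, which is not described here, was left out. The stretch from 150 to 21 bases before the start is printed for 3 class II genes, since the paired letters of the boxes were found in some of them and not in others, and for B2m, which was nearly level across the arrays. Sequences run 5′ to 3′ on the gene's strand. Capitals mark every match, on either strand, to ATTGG (the core of the Y box, CCAAT when read on the other strand), AGNAAC (a core of the X1 box), TTCNNNGAA (gamma-activated site) or the core of the interferon-stimulated response element, which is GAAA and again GAAA with 2 free bases between them.
H2-Eb1, chr17:34305717-34305846, plus strand: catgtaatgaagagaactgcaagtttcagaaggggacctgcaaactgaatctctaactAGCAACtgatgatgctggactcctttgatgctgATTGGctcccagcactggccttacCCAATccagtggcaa
H2-DMb1, chr17:34153041-34153170, plus strand: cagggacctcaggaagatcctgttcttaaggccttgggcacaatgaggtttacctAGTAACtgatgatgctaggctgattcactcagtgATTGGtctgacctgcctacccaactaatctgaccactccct
H2-Aa, chr17:34287844-34287973, minus strand: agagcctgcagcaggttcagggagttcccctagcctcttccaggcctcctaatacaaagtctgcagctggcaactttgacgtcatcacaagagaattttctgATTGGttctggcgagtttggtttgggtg
B2m, chr2:122147537-122147666, plus strand: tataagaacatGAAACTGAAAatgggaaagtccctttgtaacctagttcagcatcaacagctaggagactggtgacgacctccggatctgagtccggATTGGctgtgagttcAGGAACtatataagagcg

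H2-Eb1 and H2-DMb1 each held AGNAAC followed by ATTGG on the same strand, with starts 33 bases apart in H2-Eb1 and 34 bases apart in H2-DMb1. That arrangement, searched at a distance of 20 to 45 bases on both strands, was present in 1.45% of 32817 promoter windows of 300 bases. H2-Aa held ATTGG 48 bases before its start and no AGNAAC in the window. H2-DMa had more than 1 annotated start. Its window at chr17:34125268-34125567 held ATTGG 198 bases before the start, AGNAAC on the other strand just after that start, and not the paired arrangement. Its window at chr17:34122582-34122881 held no match. ATTGG alone was present in 37.4% of all windows and AGNAAC alone in 48.1%, so neither by itself sets a promoter apart. B2m carried the core of the interferon-stimulated response element 139 bases before its start, found in 3.43% of windows, and AGNAAC and ATTGG in the opposite order. TTCNNNGAA, present in 8.29% of windows, was in none of the windows of these 5 genes. A match shows only that these letters are there. The lack of a match shows only that these exact letters are absent, and a box with other letters would be missed.

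Of the 22180 genes, 12550 had a mean at or above 3.02, the median of all rows, and were tested with limma. Array medians were 3.05 and 3.03 in the knockouts and 3.01 and 3.01 in the controls, and Pearson's r across rows, which are not replicates, was 0.974 to 0.982 for all pairs of arrays. Mmp14, the targeted gene, read 8.27 and 8.19 on the knockout arrays and 8.71 and 9.05 on the control arrays, a log2 difference of -0.65 (SE 0.17; limma adjusted p = 0.319). Its row can include probes outside the deleted part and checks the labels only in part. The smooth muscle genes Acta2 (11.4 and 10.9 in the knockouts, 11.3 and 11.0 in the controls) and Tagln (10.4 and 9.81 in the knockouts, 10.5 and 9.77 in the controls) were well above that level on every array. Each value below is a log2 expression value on the authors' normalised scale, and values of different genes are not compared as levels. With 2 arrays against 2, the smallest two-sided exact permutation p is 0.333.

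The 2 knockout arrays differed from each other in the class II genes. H2-Aa, H2-Ab1, H2-Eb1, H2-DMa and, by 0.19 log2 units, H2-DMb1 were above both controls on knockout 2 and not on knockout 1. All 7 genes, the 6 tested ones included, had their highest value on knockout 2, by 0.09 log2 units for B2m. Among all genes tested, 24.8% were highest on that array. Of the lists described below, so were 7 of 8 class II accessory genes, 11 of 15 macrophage markers and 10 of 17 class I genes. In the interferon gamma pathway 3 of 14 were. On knockout 1, H2-Aa, H2-Eb1, H2-DMa and H2-DMb1 had their lowest value of the 4 arrays. These include 3 of the 6 tested class II pathway genes, beside 29.0% of all genes tested. Knockout 2 exceeded the highest of the other 3 arrays by at least 1 log2 unit for H2-Aa, H2-Ab1 and H2-Eb1, where 0.789% of all genes tested did so. H2-Eb1 was not tested, so 2 of the 6 tested class II pathway genes did so, and H2-Aa was tested only through knockout 2. The corresponding counts over all genes tested were 99 for knockout 2, 44 for knockout 1, 63 for control 1 and 36 for control 2. Knockout 2 was chosen for this description with its values known, so these counts carry no test.

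**Figure D1:**
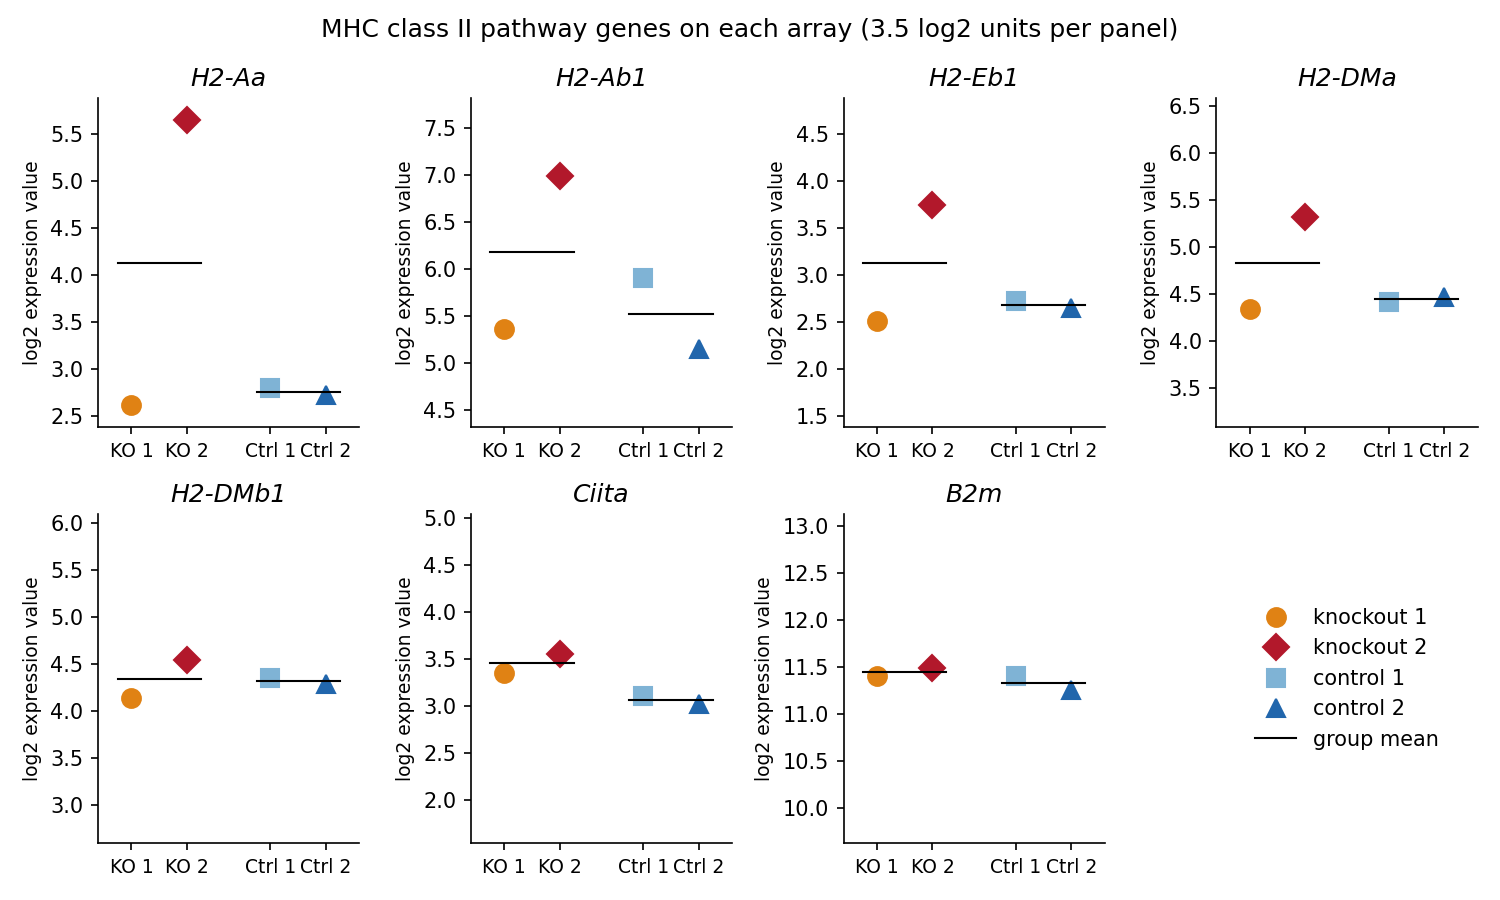
Log2 expression values (vertical axis, 3.5 units tall in every panel) of the 7 genes on knockout 1, knockout 2, control 1 and control 2, with a line at each group's mean. H2-Aa stands at 5.64 on knockout 2 and between 2.62 and 2.80 on the other arrays, while B2m stays between 11.3 and 11.5 on all arrays.

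H2-Aa encodes the alpha chain of the mouse class II molecule A. It read 2.62 on knockout 1 and 5.64 on knockout 2, against 2.80 and 2.72 on the control arrays. Knockout 2 alone was high, 2.88 log2 units above the control mean, and knockout 1 lay below both controls. The means were 4.13 ± 2.14 in the knockouts and 2.76 ± 0.05 in the controls (SD, n = 2 each). The difference of 1.37 (SE 0.99, 95% interval -1.22 to 3.96) did not pass the test (limma adjusted p = 0.638), and it was -0.14 with knockout 1 as the only knockout array. The margin of knockout 2 over the highest other array, 2.85 log2 units, was the fourth largest among the 12550 genes. H2-Aa passed the filter on dim genes only through knockout 2, so its place among the genes tested, that rank and its p all rest on the high array. The values on the other 3 arrays lay below the median of all rows, and no background level is at hand to say whether they are signal, so the sizes of its differences may be lower bounds.

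H2-Ab1 encodes the beta chain that pairs with it. It read 5.36 on knockout 1 and 6.99 on knockout 2, against 5.91 and 5.15 on the control arrays. Knockout 1 lay between the controls, which were 0.76 apart, and knockout 2 was above all. The means were 6.18 ± 1.15 in the knockouts and 5.53 ± 0.54 in the controls (SD, n = 2 each), a difference of 0.65 (SE 0.60, 95% interval -0.92 to 2.22; limma adjusted p = 0.724). With knockout 1 as the only knockout array the difference was -0.16.

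H2-Eb1 encodes the beta chain of the class II molecule E. It read 2.52 on knockout 1 and 3.75 on knockout 2, against 2.72 and 2.65 on the control arrays. Again knockout 2 was the only high array. Its 4-array mean was under the filter level, so it was not among the genes tested. With no filter the difference of 0.45 (SE 0.41) had a limma adjusted p of 0.800, and without knockout 2 the difference was -0.17. H2-Ea, the alpha chain gene that partners it, ranged from 2.55 to 2.73 in the knockouts and from 2.46 to 2.55 in the controls and was under the filter level on every array.

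H2-DMa and H2-DMb1 encode the alpha chain and a beta chain of H2-DM, the peptide exchanger of endosomes. H2-DMa read 4.34 on knockout 1 and 5.32 on knockout 2, against 4.41 and 4.47 on the control arrays. It followed the pattern of the class II chains at a smaller size, with a difference of 0.39 (SE 0.34; limma adjusted p = 0.710) over both knockout arrays and of -0.10 without knockout 2. H2-DMb1 read 4.14 on knockout 1 and 4.54 on knockout 2, against 4.35 and 4.28 on the control arrays. Its control values lay between the knockout values, and the means were nearly the same: 4.34 ± 0.28 in the knockouts and 4.31 ± 0.05 in the controls (SD, n = 2 each). The difference of 0.02 (SE 0.19; limma adjusted p = 0.977) turned to -0.01 when the arrays were centred on their medians or normalised again. H2-DMb2, a close paralog with its own row, read 2.20 and 2.76 in the knockouts and 2.12 and 2.36 in the controls, and how far the probes of such paralogs cross-hybridise is not known here.

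**Figure D2:**
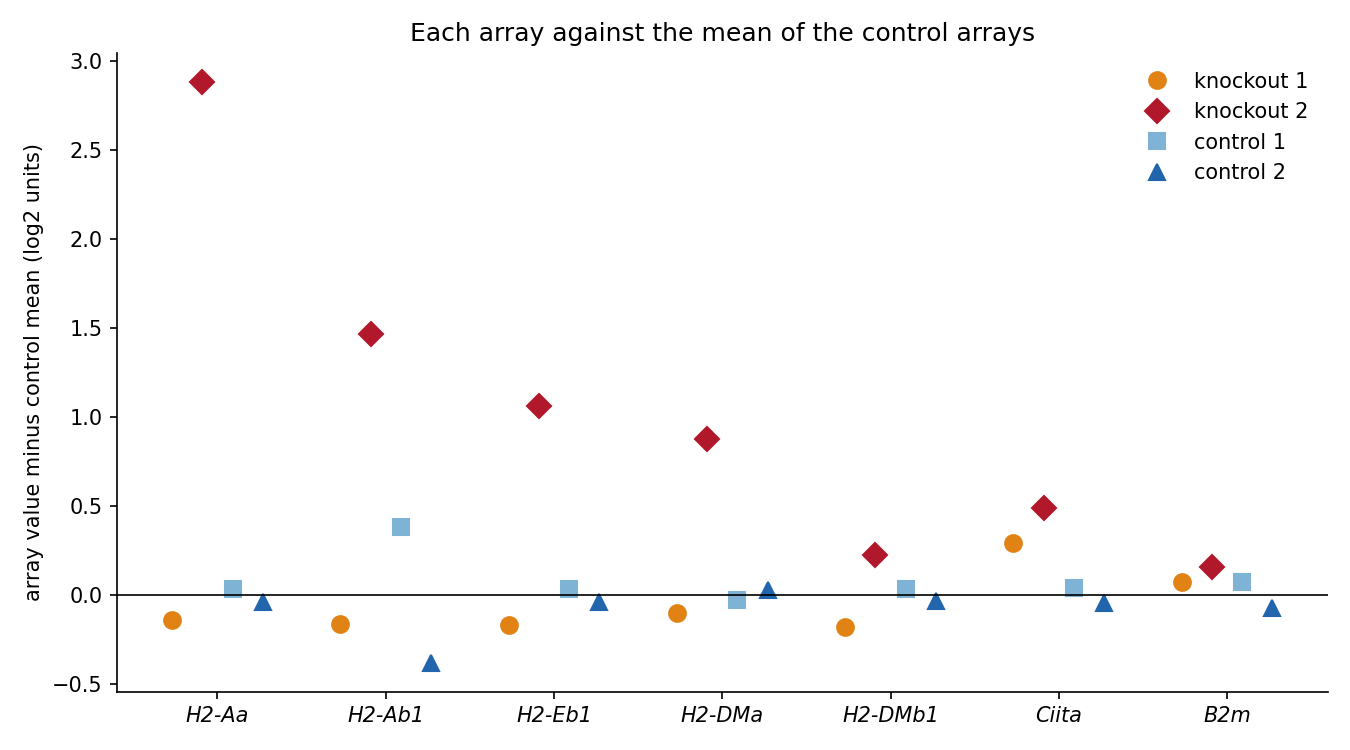
Difference of each array from the mean of the control arrays (vertical axis, log2 units) for the 7 genes, with knockout 1, knockout 2, control 1 and control 2 as separate points. Knockout 2 is above 0 for all genes, from 0.16 for B2m to 2.88 for H2-Aa, while knockout 1 is below 0 for 5 genes and above it for Ciita and B2m.

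Ciita, the switch of class II transcription, had a different pattern. It read 3.36 on knockout 1 and 3.56 on knockout 2, against 3.11 and 3.03 on the control arrays. Both knockout arrays were above both controls. The means were 3.46 ± 0.14 in the knockouts and 3.07 ± 0.06 in the controls (SD, n = 2 each), a difference of 0.39 (SE 0.15, 95% interval 0.00 to 0.78). It had an unadjusted limma p of 0.0496 and did not pass after adjustment (limma adjusted p = 0.428). The 2 knockout arrays differed by 0.20 for Ciita, against 3.02 for H2-Aa. All 4 values were close to the filter level of 3.02.

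B2m read 11.4 on knockout 1 and 11.5 on knockout 2, against 11.4 and 11.3 on the control arrays. The means were 11.45 ± 0.06 in the knockouts and 11.33 ± 0.10 in the controls (SD, n = 2 each). The knockout arrays did not overlap the controls, but by a margin so small that centring the arrays on their medians removed it. The difference of 0.12 (SE 0.14, 95% interval -0.26 to 0.49) did not pass the test (limma adjusted p = 0.794). The interval covers changes of up to 0.49 log2 units upward.

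None of the 6 class II pathway genes tested passed an adjusted p under 0.05, as none of all genes tested did (0%). At an unadjusted limma p under 0.05 there was 1 of the 6, Ciita, where 11.7% of all genes tested had such a p. That of Ciita was 0.0842 with a replicate block, 0.0637 after a second quantile normalisation and 0.0686 after median centring (limma, unadjusted). It stayed under 0.05 with no filter (0.0317), with a trend in eBayes (0.0411) and with a gene's rows averaged (0.0483; limma, unadjusted). The difference of Ciita was 0.29 to 0.49 when single arrays were left out. Both knockout arrays lay above both controls for 2 of the 6 genes, Ciita and B2m, and below them for 0 of the 6. Over all genes tested these shares were 16.7% above and 27.5% below. A count of 2 in 6 is too small to be read against them. The median difference was 0.39 over the 7 genes and -0.05 over all genes tested.

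Taken one knockout array at a time, the 2 columns of differences share the same controls. Knockout 2 was at least 1 log2 unit above the control mean for H2-Aa, H2-Ab1 and H2-Eb1, 3 of the 7 genes, where 3.15% of all genes tested were. Knockout 1 was that far above it for 0 of the 7, where 1.76% of all genes tested were. H2-Eb1 was not tested, and among the 6 genes tested the counts were 2 for knockout 2 and 0 for knockout 1. H2-Aa was tested only through its value on knockout 2. Directly between the knockout arrays, which needs no control, knockout 2 exceeded knockout 1 by 3.02 for H2-Aa, by 1.63 for H2-Ab1, by 1.23 for H2-Eb1 and by 0.98 for H2-DMa. A lead of at least 1 log2 unit in that direction was present in 2.06% of all genes tested. The control arrays were at least 1 log2 unit apart for 2.65% of all genes tested and for 0 of the 7 genes.

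**Figure D3:**
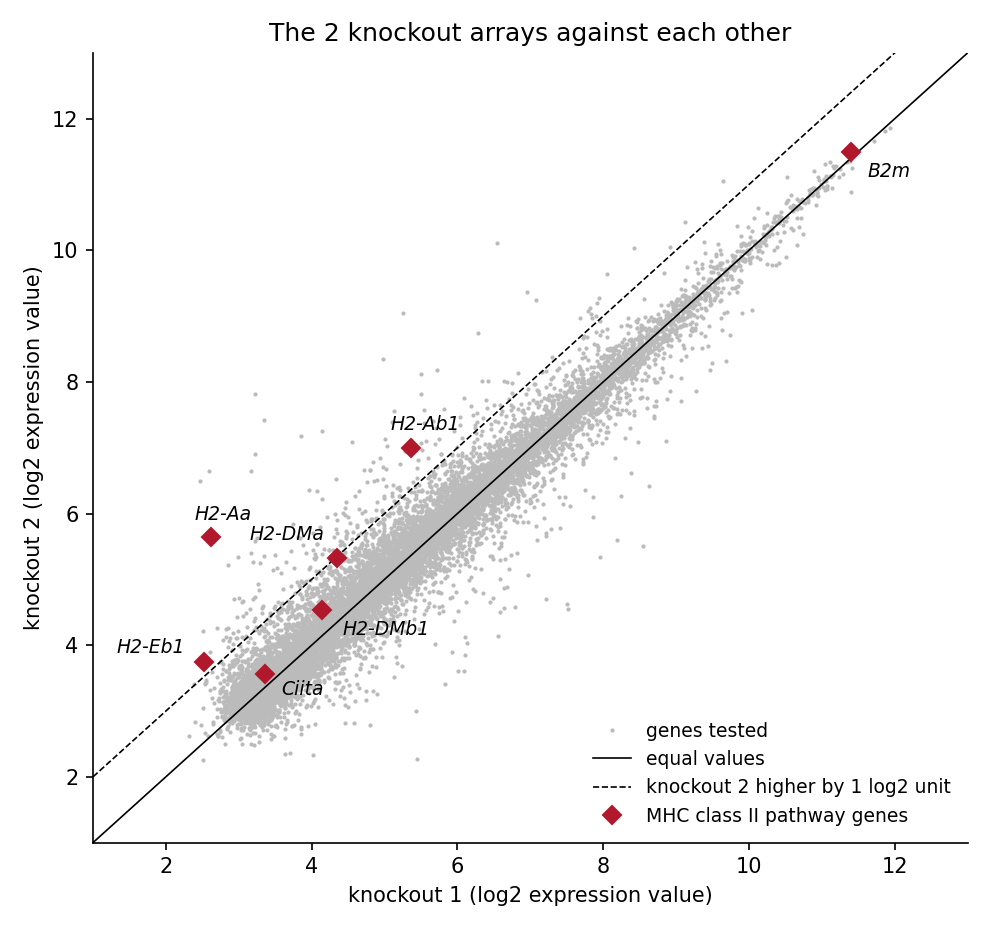
Log2 expression values on knockout 1 (horizontal axis) and knockout 2 (vertical axis) for the 12550 genes tested (grey) and the 7 class II pathway genes (red). H2-Aa, H2-Ab1 and H2-Eb1 lie above the dashed line of a 1-unit lead of knockout 2, H2-DMa lies just under it at 0.98, and Ciita and B2m lie near the line of equal values.

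The genes whose 4-array profile lay nearest to that of H2-Ab1, by Euclidean distance between mean-centred log2 values, were Cadm4 at a distance of 0.17, Abcg1 at 0.22, Ddhd1 at 0.27, Foxd3 at 0.32 and Gpcpd1 at 0.36. Abcg1, a cholesterol efflux transporter, read 4.65 and 6.34 on the knockout arrays, against 5.03 and 4.57 on the control arrays. For H2-Aa, a profile added after its values were seen, the nearest were Cd274 at 0.37, Cd33 at 0.48, Fgr at 0.54, Mcemp1 at 0.54 and Ccl5 at 0.64. Cd274, the inhibitory ligand PD-L1, read 4.56 and 7.09 on the knockout arrays, against 4.66 and 4.45 on the control arrays. Over 4 arrays such nearness says little beyond a shared high value on knockout 2.

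The genes of proteins that cut the invariant chain and prepare peptides were mostly above both controls on both knockout arrays. Of 13 class II accessory genes with a row, 8 were tested, and 7 of the 8 were above both controls on both knockout arrays, where 16.7% of all genes tested were. The median difference of the 8 was 0.44. Lgmn, the asparaginyl endopeptidase that starts invariant chain processing, read 9.34 and 9.42 in the knockouts, against 8.37 and 8.29 in the controls, a difference of 1.05 (SE 0.14; limma adjusted p = 0.155). Ctss, the cathepsin that removes its last part, differed by 0.67, Ctsb by 0.53 and Marchf1, a ubiquitin ligase that lowers surface class II, by 0.51. For these 4 genes the knockout arrays were 0.07 to 0.31 apart. The eighth tested gene, Ifi30, which encodes a thiol reductase that opens disulfide bonds of antigens in endosomes, had the pattern of H2-DMa: it read 7.82 on knockout 1 and 9.12 on knockout 2, against 8.19 and 7.99 on the control arrays, a difference of 0.37 (SE 0.45; limma adjusted p = 0.790). The others of the list, H2-DMb2, H2-Oa, H2-Ob, H2-Eb2 and H2-Ea, were under the filter level on all 4 arrays.

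Among 11 tested genes of class II transcription, 5 were above both controls on both knockout arrays (16.7% of all genes tested) and 2 below (27.5% of all genes tested), with a median difference of 0.17. Irf8 and Spi1, transcription factors of myeloid cells, differed by 1.61 (SE 0.29; limma adjusted p = 0.213) and 0.86 (SE 0.26; limma adjusted p = 0.356). Nfyb, a subunit of the factor that binds the Y box, differed by -0.49 and Irf1, an interferon-induced factor, by 0.31. Of the RFX subunits, which bind the X box, Rfxap read 4.43 and 5.03 in the knockouts, against 4.85 and 5.13 in the controls, and Rfxank read 5.19 and 5.33, against 5.12 and 5.07 in the controls. None of the 11 passed after adjustment over all genes.

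The class I pathway, which B2m serves, had 11 of 17 tested genes above both controls on both knockout arrays, against 16.7% of all genes tested, and 1 below, against 27.5%. Its median difference was 0.52. Psmb9, an immunoproteasome subunit, read 5.79 on knockout 1 and 6.73 on knockout 2, against 4.61 and 4.82 in the controls, a difference of 1.55 (SE 0.34; limma adjusted p = 0.262). Psmb8, another such subunit, read 6.13 and 6.18 in the knockouts, against 5.10 and 5.23 in the controls, a difference of 0.99. H2-K1, a class I heavy chain, read 7.68 and 8.21 in the knockouts, against 7.18 and 6.77 in the controls, a difference of 0.97 (SE 0.25; limma adjusted p = 0.318). Class I heavy chain genes are similar in sequence, so the row may take signal from other heavy chain genes. Erap1, which trims peptides for class I, differed by 0.87. None of the 17 passed after adjustment over all genes.

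Genes of the interferon gamma pathway were not led by knockout 2. Of 14 tested, 5 were above both controls on both knockout arrays (16.7% of all genes tested) and 1 below (27.5% of all genes tested). The median difference from the control mean was 0.26 on knockout 1 and 0.14 on knockout 2, against -0.12 and 0.68 for the 6 tested class II pathway genes. Of those 6, H2-Aa was tested only through its value on knockout 2, so the 0.68 rests in part on that array's own selection. Jak2, a kinase of the interferon gamma receptor, read 6.76 and 6.52 in the knockouts, against 5.65 and 5.85 in the controls, a difference of 0.89 (SE 0.17; limma adjusted p = 0.230). Irgm2, an interferon-induced GTPase, also read higher on knockout 1, at 5.99, than on knockout 2, at 5.47, against 5.37 and 4.32 in the controls. Ifngr1 differed by 0.32, and Icam1, the gene below both controls, by -0.40. Of 8 tested costimulation genes, 4 were above both controls on both knockout arrays, 1 was below and 3 overlapped, beside the same 16.7% above and 27.5% below over all genes tested. Those above were Cd48 (1.62), Cd86 (0.99), Cd83 (0.52) and Tnfsf9 (0.35), and Cd274 was the only one of the 8 with a lead of knockout 2 of at least 1 log2 unit over all other arrays. None of these genes passed after adjustment over all genes.

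**Figure D4:**
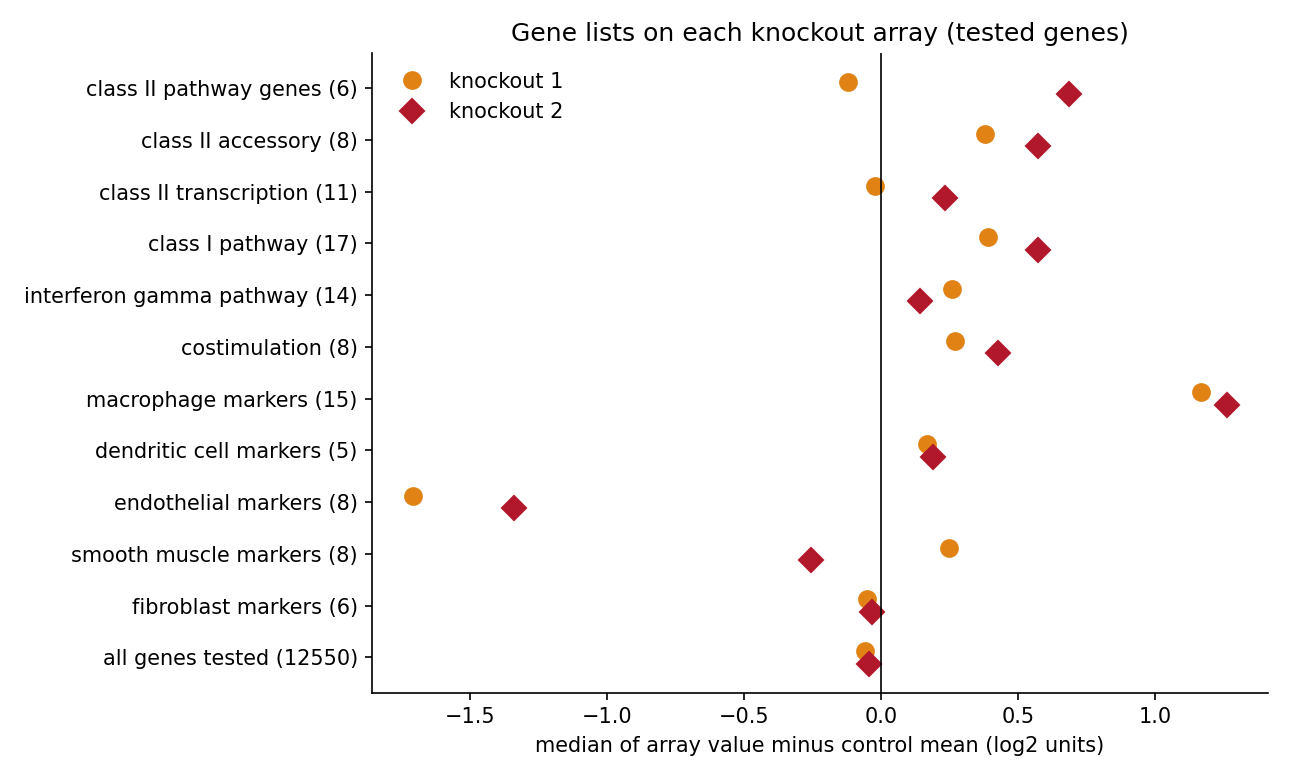
Median over the tested genes of each list (number in brackets) of the array value minus the control mean, in log2 units, for knockout 1 and knockout 2. The class II pathway genes are at -0.12 on knockout 1 and 0.68 on knockout 2, while the macrophage markers are at 1.17 and 1.26. Among the class II pathway genes, H2-Aa was tested only through its value on knockout 2.

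Markers of other cell types were read on the same arrays, and none passed after adjustment over all genes. All 15 macrophage markers were higher in the knockouts on average, 13 of them above both controls on both knockout arrays, where 16.7% of all genes tested were. The log2 of their summed level was 12.9 and 13.1 in the knockouts and 12.3 and 12.2 in the controls. That sum, which follows the brightest markers, was higher on both knockout arrays than on either control array. Within this list Itgam, which encodes CD11b, read 6.41 on knockout 1 and 8.02 on knockout 2, against 5.71 and 5.88 in the controls, and was the only marker of the 15 with a lead of knockout 2 of at least 1 log2 unit over all other arrays. Of the 15 markers, 11 had their highest value on knockout 2, where 24.8% of all genes tested did. Knockout 2 exceeded knockout 1 by at least 1 log2 unit for 2 of the 15, where 2.06% of all genes tested did. The part of macrophages in the class II values was not tested. In bulk RNA, fewer or more cells of a type and less or more RNA per cell cannot be told apart.

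Of 11 dendritic cell markers with a row, Zbtb46, Xcr1, Batf3, Itgae and Clec10a were under the filter level on all 4 arrays. Of the 5 tested, Cd209a read 4.35 and 4.34 in the knockouts, against 4.03 and 4.22 in the controls, and Ccr7 read 4.80 and 4.81 in the knockouts, against 4.54 and 4.72 in the controls. Fscn1 read 5.99 and 5.92 in the knockouts, against 5.91 and 5.83 in the controls, so these 3 genes showed no lead of knockout 2. Itgax, which encodes CD11c and is also made by macrophages, was the exception, at 6.28 and 8.75 in the knockouts, against 5.54 and 6.90 in the controls. The log2 of the summed level of the list, which follows Itgax, was 7.91 and 9.20 in the knockouts and 7.60 and 8.09 in the controls. Of 8 B cell markers, Cd79a, Cd79b, Ms4a1, Cr2 and Fcer2a were under the filter level on all arrays, and 2 were tested. Fcmr read 3.30 and 3.35 in the knockouts, against 3.04 and 3.04 in the controls. Cd22 read 4.07 and 5.53 in the knockouts, against 3.74 and 3.84 in the controls. That list, whose sum follows Cd22, summed to 5.90 and 6.49 in the knockouts and 5.76 and 5.83 in the controls, in the same log2 unit.

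Of the T cell markers Cd28 alone was tested, and it read 4.81 on knockout 1 and 4.69 on knockout 2, against 4.38 and 4.28 in the controls. Cd8a read 3.04 and 2.75 in the knockouts, against 2.93 and 2.90 in the controls. The T cell receptor complex genes Cd3e, Cd3d and Cd3g, untested and singled out after their values were seen, read highest on knockout 2, at low values. Cd3e read 2.66 and 3.56 in the knockouts, against 2.73 and 2.77 in the controls. Cd3d read 2.27 and 3.17 in the knockouts, against 2.33 and 2.09 in the controls, and Cd3g read 2.40 and 3.16, against 2.33 and 2.19 in the controls. Cd4 and Zap70 were under the filter level on all arrays. The log2 sum of the 8 T cell markers was 6.24 and 6.41 in the knockouts and 6.05 and 5.96 in the controls. The part of dendritic, B or T cells in the class II values was not tested.

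Of 8 tested endothelial markers, 5 were below both controls on both knockout arrays (27.5% of all genes tested) and 3 were higher on average, 1 of them above both controls (16.7% of all genes tested). The median difference was -1.57. Their log2 sum was 7.79 and 7.99 in the knockouts and 10.4 and 9.34 in the controls. Smooth muscle markers summed to 12.3 and 11.7 in the knockouts and 12.2 and 11.7 in the controls, and fibroblast markers to 9.31 and 9.08 in the knockouts and 9.10 and 9.47 in the controls. The part of these cells in the class II values was not tested.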

How the data were processed

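Total RNA of 2 knockout and 2 control cultures was hybridised to Mouse Gene ST 2.1 arrays, per the series' design text. The deposited values are log2 values that the authors background-corrected, normalised and summarised with RMA, per the submitters' processing notes. Their range, 1.17 to 12.4, gave the log base. Chip definition and genome build: not given in the sources used here. The design text names 2 pairs of mice, and no label says that arrays with the same number form a pair. The spread behind each p-value mixes mouse, culture and hybridisation, and precision is limited by the number of arrays.

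Of 41345 rows, 23521 had 1 gene symbol in the platform annotation, 1814 had several and 16010 had none. For 1082 genes with several rows, the row with the highest mean was kept. Genes with a mean below 3.02 were left out of the test, 9630 in number. Knockout minus control was then estimated for the rest in limma 3.58.1 under R 4.3.3 (lmFit, then eBayes, no covariates), and a call needed an adjusted p (Benjamini-Hochberg) under 0.05. The fit was tested on simulated data. Fold changes are on the log2 scale of RMA, which understates changes of dim genes. A list's summed level is the log2 of the sum of its unlogged values over all its members with a row, and it follows the brightest of them.

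The class II pathway genes, the gene lists and the tests were chosen with earlier results of these data known. Of each list the rule names the 4 tested genes that differ most without overlap between groups, and with them the nearest profiles by distance. For the macrophage, endothelial, smooth muscle and fibroblast lists the genes that the rule names are not printed. The rule's nearest profiles of Cd74 could not be taken, since Cd74 has no row of its own. Cd274, Ifi30, Itgam, Itgax, H2-Ea, H2-DMb2, Rfxap, Rfxank, Acta2, Tagln, Cd8a and the Cd3 genes fall outside the rule and were named after their values were seen. Promoter sequences are RefSeq's. Figures were drawn with matplotlib 3.10.9.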

Additional observations from a re-analysis of the deposited data

How the results depend on the processing

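No gene that was tested, in the class II pathway or outside it, was called under any of the alternatives. The 75th percentile filter left 2 of the class II pathway genes to test, H2-Ab1 and B2m, and H2-Eb1 was tested with no filter only. The alternatives were leaving out each array, a trend in eBayes, averaging a gene's rows, centring each array on its median, quantile normalising again, filtering dim genes at the 75th percentile or not at all, and a replicate block from the titles' numbers. The number of genes at an unadjusted limma p under 0.05 was 1465, and 1527 with the replicate block, with 0 called in both. Whether the numbers mark the pairs of mice is not known: the deviations of same-numbered arrays had r = 0.05 across genes, which with 2 arrays a group does not settle it. The difference of H2-DMb1 was -0.0051 after a second quantile normalisation and -0.0073 after median centring, and -0.18 to 0.22 when single arrays were left out. Leaving out single arrays gave -0.14 to 2.88 for H2-Aa, -0.16 to 1.46 for H2-Ab1, -0.17 to 1.06 for H2-Eb1 and -0.10 to 0.88 for H2-DMa. Each low end was without knockout 2 and each high end without knockout 1. A fit without 1 of the knockout arrays assumes that the lone array left varies like the controls. The genes without overlap numbered 1 after median centring and 2 to 7 when single arrays were left out, where fewer arrays make overlap rarer. Ciita and B2m kept their direction under all 11 alternatives.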
